A study of Mus musculus with 2 samples.

Results

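The genes described here encode the proteins of the mitochondrial ribosome. They were taken as the protein-coding genes whose name is Mrpl or Mrps followed by a number, which gave 78 of the 55536 annotated genes, or 78 of the 22028 protein-coding ones. The rule uses the names alone. The data are total RNA sequencing of hippocampus from female B6CASTF1/J mice, the F1 offspring of a cross between the strains C57BL/6J and CAST/EiJ. There was 1 group of 2 libraries, replicates 1 and 2, each from tissue of 36 days of age and each made from 300 ng of RNA, with no treatment named in the labels. The tissue is labelled as a layer of the hippocampus, without the layer being named, and the libraries have separate biosamples, with different numbers in their descriptions, but share a donor identifier. Whether they come from separate animals is not stated outright, and every spread below is that between these samples, which may be technical.

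The summed expected counts (read counts divided among matching transcripts, spike-in RNAs included) were 32443497 in replicate 1 and 30125183 in replicate 2. Markers of dentate granule cells (6 of 6 genes), CA1 (5 of 5), CA3 (5 of 5), astrocytes (5 of 5) and oligodendrocytes (5 of 5) were all at 1 TPM or more in both libraries. TPM is a level of transcripts corrected for RNA length and for the size of the library. Each library was deposited with 2 quantifications, called the first and the second here, and values come from the first unless stated. Markers of the choroid plexus, an epithelium that lies against the hippocampus in the ventricle, set the libraries apart. Of its 10 markers 3 were at 1 TPM or more in both libraries. The middle of the list was at 0.295 TPM in the first library and at 6.89 TPM in the second, and its defining gene Ttr was at 20.8 and 1237 TPM. Oligodendrocyte genes were lower in replicate 2, by a median log2 ratio of -0.35 over 5 genes.

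Mitochondria keep their own ribosome, which makes only the proteins encoded by mitochondrial DNA, all of them core parts of the respiratory chain and of ATP synthase. Its ribosomal RNAs, mt-Rnr1 and mt-Rnr2, are copied from mitochondrial DNA, whereas all its proteins are encoded in the nucleus, made in the cytosol and imported. Many of these proteins descend from those of bacterial ribosomes and others were added in the mitochondrial lineage. Neurons depend on the respiratory chain for most of their ATP, and inherited defects of mitoribosomal proteins often affect the brain, heart and liver.

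Each of the 78 reached 1 TPM in both libraries, taken here as detected, against 57.6% of protein-coding genes. Together they held 40930 of the counts in replicate 1 and 37653 in replicate 2, or 0.127% and 0.125% of the counts of all genes. The median over members was 21.5 TPM, with library medians of 21.44 and 21.25 TPM (SD 0.134, n = 2), and the sum of their TPM was 1786 and 1727. The levels were close together: 64 of the 78 genes lay between 10 and 40 TPM, 7 below and 7 above. The gene at the 90th percentile stood 3.34-fold above the gene at the 10th percentile, compared with 26.9-fold among all detected protein-coding genes, 3.72-fold among cytosolic ribosomal protein genes and 4.10-fold among nuclear genes of oxidative phosphorylation. In bulk tissue such levels do not separate the number of cells from the RNA in each cell.

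**Figure D1:**
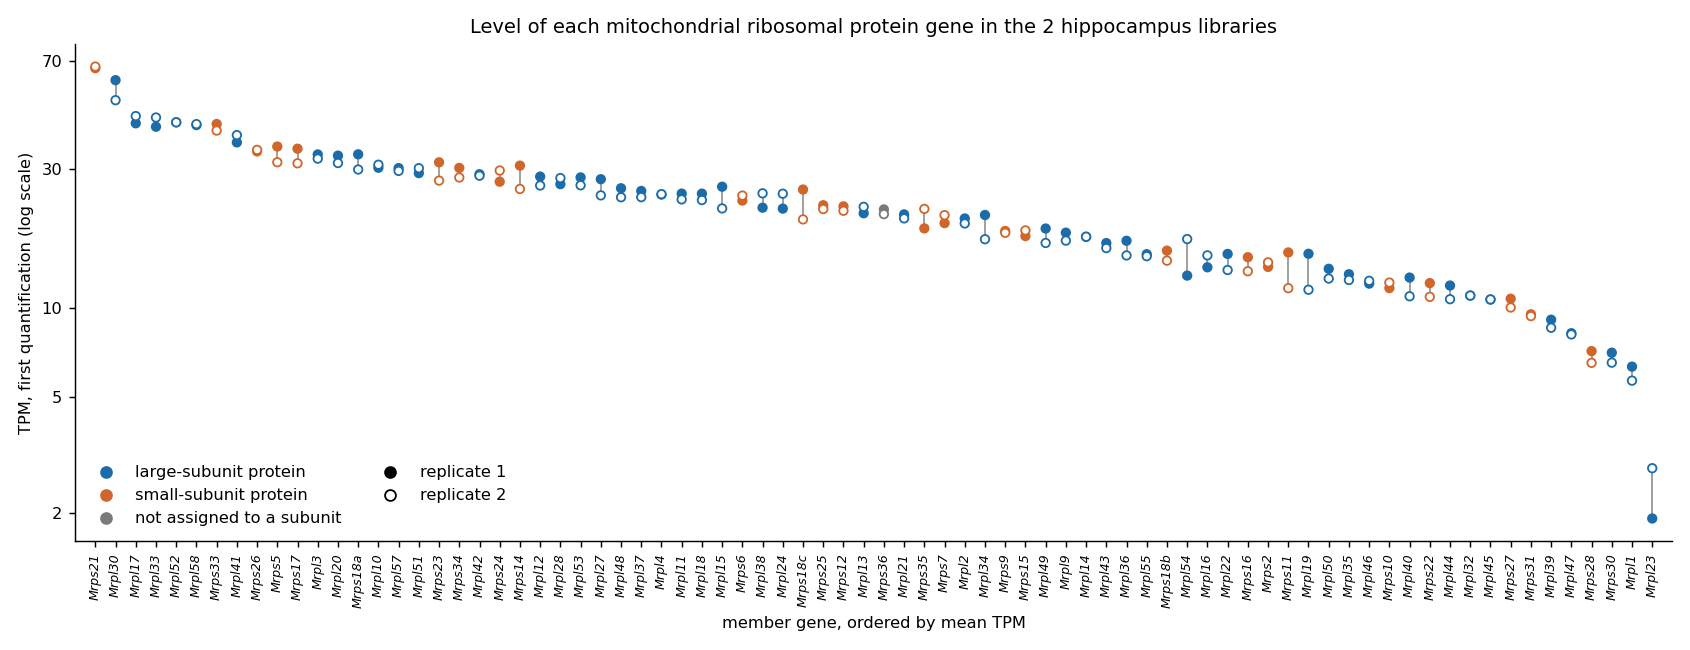
Level of each of the 78 genes in TPM (log axis), ordered by mean, with replicate 1 as filled and replicate 2 as open circles and the colour giving the subunit of the protein. A flat slope from 66.4 TPM for Mrps21 to 6.00 TPM for Mrpl1 is followed by Mrpl23 at 2.39 TPM, and large- and small-subunit genes are mixed along the whole range.

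Mrps21 (mm10, chr3:95862634-95871519, minus strand), which encodes a small-subunit protein related to bacterial S21, had the highest level, 66.0 TPM in replicate 1 and 66.8 TPM in replicate 2. Mrpl30 (chr1:37890477-37898535, plus strand), a large-subunit gene of bacterial descent, followed at 60.1 and 51.3 TPM. These genes did not overlap with any other member in either library. In the second quantification Mrps21 (106 and 111 TPM) overlapped with Mrps33 (110 and 106 TPM). The third to seventh places were held by Mrpl17 (42.8 and 45.3 TPM), Mrpl33 (41.7 and 44.8 TPM), Mrpl52 (43.1 TPM in both), Mrpl58 (42.2 and 42.5 TPM) and Mrps33 (42.6 and 40.4 TPM), whose values overlapped, so that their order is not resolved. Mrpl52 and Mrps33 are proteins without a bacterial counterpart. Mrpl58 is a peptidyl-tRNA hydrolase that is a fixed part of the large subunit and is also known for freeing stalled ribosomes. Mrpl41, Mrps26 and Mrps5 completed the upper 10, at 36.8 and 39.0, 34.3 and 34.7, and 35.7 and 31.5 TPM.

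The lowest level was that of Mrpl23, 1.92 TPM in replicate 1 and 2.85 TPM in replicate 2, a value that rests on a division of reads described further on. The next lowest was Mrpl1 (chr5:96209493-96266727, plus strand), the protein of the mobile stalk beside the exit site for tRNA, at 6.33 and 5.67 TPM. Mrps30 (7.06 and 6.53 TPM), which despite its name belongs to the large subunit, and Mrps28 (7.15 and 6.52 TPM) overlapped with each other and lay above Mrpl1. Then came Mrpl47 (8.23 and 8.15 TPM), Mrpl39 (9.15 and 8.59 TPM) and Mrps31 (9.55 and 9.41 TPM), 3 genes in the same order in both libraries and without overlap. The lowest 10 ended with Mrps27 (10.8 and 10.1 TPM), a pentatricopeptide-repeat protein that binds RNA, Mrpl45 (10.7 TPM in both), which ties the large subunit to the inner membrane, and Mrpl32 (11.1 TPM in both), a protein matured by the mitochondrial m-AAA protease before it can be built in.

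Members with known places in the ribosome were spread over the range. At the factor-binding stalk, Mrpl10, the stalk base, was at 30.2 and 30.9 TPM, Mrpl12, the protein present in several copies on the stalk, at 28.2 and 26.3 TPM, and Mrpl11, beside it, at 24.6 and 23.5 TPM. The 3 genes kept this order in both libraries and did not overlap. Mrps12, the protein of the decoding centre, was at 22.3 and 21.5 TPM and Mrps34, a mitochondria-specific protein of the small subunit, at 30.2 and 28.0 TPM. Mrpl38 in the central protuberance was at 22.1 and 24.7 TPM. Mrpl44, which has the fold of a ribonuclease III, was at 11.97 and 10.8 TPM, below all of these in each library. Across all members TPM was lower for longer RNAs (Spearman's rho -0.46, Pearson's r -0.53, n = 78), a description over genes of the same libraries.

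Mrps18a, Mrps18b and Mrps18c are paralogues whose proteins sit at different places, that of Mrps18a in the large subunit. Their levels were 33.6 and 29.8 TPM for Mrps18a, 15.7 and 14.6 TPM for Mrps18b, and 25.4 and 20.1 TPM for Mrps18c. The 3 ranges did not overlap. Mrps36, at 21.8 and 20.97 TPM, carries the name of a ribosomal protein but is now known as a subunit of the alpha-ketoglutarate dehydrogenase complex, and it was left out of the comparison of the subunits.

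Large- and small-subunit genes had close medians, with the large subunit slightly higher in the first quantification. By structural assignment 51 members encode large-subunit proteins, with a median of 21.7 TPM (library medians 21.1 and 21.9), and 26 encode small-subunit proteins, with a median of 21.1 TPM (20.9 and 21.2). The difference of the median log2(TPM + 0.1), large minus small, was 0.04, with 0.02 in replicate 1 and 0.05 in replicate 2 (SD 0.024, n = 2). Over members whose mean count reached 100 it was 0.0897, and in neither form was it tested. In the second quantification the medians in replicate 1 were 39.4 TPM (large) and 38.5 TPM (small). Replicate 2 had the reverse order there, with 39.05 TPM (large) and 39.7 TPM (small). By current protein names, under which Mrps18a, Mrps18b and Mrpl58 count as mitochondria-specific, the 45 genes of bacterial descent had a median of 21.7 TPM and the 31 mitochondria-specific ones 22.2 TPM, with library medians of 21.1 and 20.8 against 22.1 and 21.9. The second quantification had the reverse order, with medians of 40.7 TPM (bacterial descent) and 32.4 TPM (mitochondria-specific). Its library medians were 40.2 and 39.98 TPM against 32.5 and 37.2 TPM. Mrps28, at 7.15 and 6.52 TPM, and Mrps36 were in neither class. The members are not replicates, and no p is given for these differences.

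5 proteins of the mitoribosome have names of another kind, and all 5 genes were detected. They were Dap3, a GTP-binding protein of the small subunit, at 47.1 and 47.2 TPM, Aurkaip1 at 35.4 and 37.7, Ptcd3 at 27.3 and 28.0, Chchd1 at 20.01 and 21.9, and Gadd45gip1, a large-subunit protein, at 10.3 and 9.91 TPM. Their median of 27.6 TPM lay inside the range of the named members. The RNAs they assemble on were far more abundant, mt-Rnr2 of the large subunit at 41429 and 42711 TPM and mt-Rnr1 of the small subunit at 29420 and 30604 TPM. The labels name a spike-in profile for libraries with reduced ribosomal RNA, so the rRNA levels also contain whatever that step removed, which was not tested.

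Genes of the cytosolic ribosome and of the respiratory chain stood higher. For 76 cytosolic ribosomal protein genes the median was 165 TPM (167 and 162 in the libraries), 7.66-fold that of the mitoribosomal genes (SD 0.109), and 71 of them exceeded Mrps21. The 77 nuclear genes for subunits of oxidative phosphorylation had a median of 104 TPM (108 and 101), 4.83-fold that of the mitoribosomal genes (SD 0.215), and 65 of them exceeded Mrps21. The 77 include 2 annotated genes named Atp5o, 1 at a mean of 162 TPM and 1 at 0. None of the 78 members reached the 10th percentile of the cytosolic set (82.2 TPM) and 1 member, Mrps21, reached that of the respiratory set (60.9 TPM). The 13 mitochondrially encoded protein genes, whose RNA the mitoribosome translates, had a median of 1976 TPM in replicate 1 and 1362 TPM in replicate 2. The middle gene differed, mt-Nd4 in replicate 1 and mt-Atp6 in replicate 2. Over the 13 genes the median log2 ratio, replicate 2 over replicate 1, was -0.23. In the second quantification the cytosolic and respiratory medians were 8.81-fold and 5.16-fold those of the members. These folds compare fixed lists in the same libraries and carry no test.

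**Figure D2:**
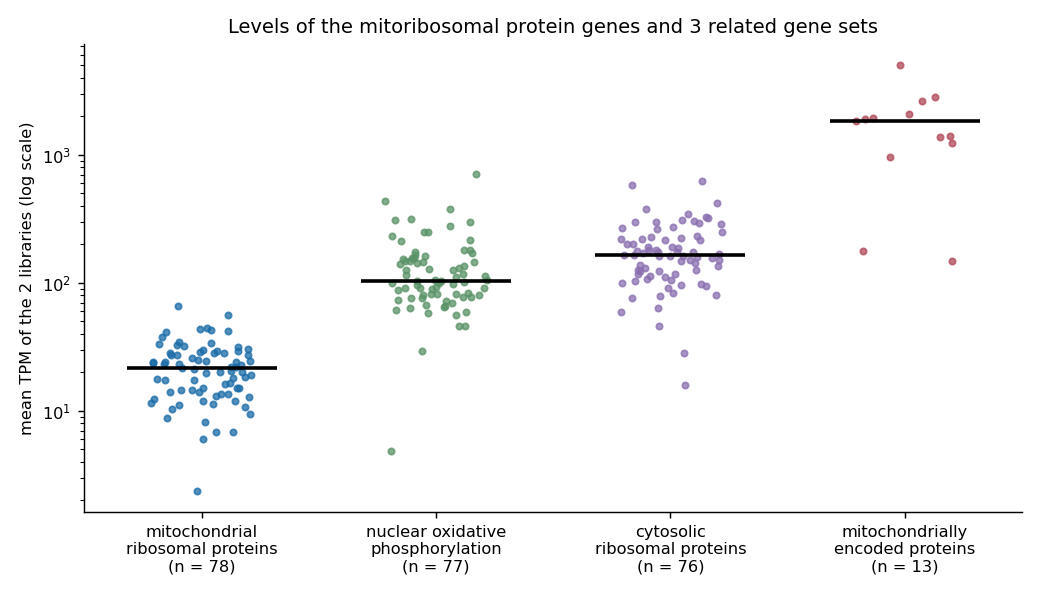
Mean TPM over the 2 libraries (log axis) for each gene of 4 sets, with a black bar at the median of each set. The name Atp5o belongs to 2 annotated genes. The one at 162 TPM is drawn, and the one at 0 is in the median but not drawn. The 78 mitoribosomal genes lie between 2.39 and 66.4 TPM, below 71 of the 76 cytosolic ribosomal protein genes.

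Lists of genes for building the mitoribosome, for mitochondrial gene expression and for mitochondrial biogenesis had lower median RNA levels than the mitoribosomal protein genes. The 23 genes for its assembly and for modification of its rRNA were all detected, with a median of 7.79 TPM. They were led by the RNA helicase gene Dhx30 (63.6 and 65 TPM), with Mettl17 (20.2 and 16.3 TPM), a methyltransferase-like assembly factor, and Trub2 (16.0 and 18.7 TPM), a pseudouridine synthase, far behind. The median over 12 translation factors was 10.1 TPM, and the highest were the elongation factor genes Tufm (35.6 and 33.1 TPM) and Gfm1 (23.4 and 20.9 TPM) and Oxa1l (20.3 and 19.5 TPM), which inserts nascent chains into the inner membrane. The 17 aminoacyl-tRNA synthetases of mitochondria had a median of 9.90 TPM. Lars2, for leucine, led them at 31.7 and 23.3 TPM, followed by Tars2 (15.8 and 17.3 TPM) and Vars2 (17.4 and 14.7 TPM), whose values overlapped. The level of Lars2 is uncertain, with 2656 and 1896 counts in the first quantification and 6794 and 4612 in the second. By the second it was at 174 and 131 TPM. The 12 genes for mitochondrial transcription and mRNA stability had a median of 11.1 TPM. Polg, the DNA polymerase of mitochondria (34.8 and 39.5 TPM), and the mRNA-stabilizing partners Slirp (39.8 and 33.8 TPM) and Lrpprc (27.3 and 25.4 TPM) were highest there. Among 9 regulators of mitochondrial biogenesis, with a median of 11.4 TPM, the highest were Esrra (23.9 and 23.0 TPM), Yy1 (22.3 and 19.9 TPM) and Ppargc1a (18.5 TPM in both).

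The libraries differed little in these genes. Ratios between the libraries are of counts scaled by TMM, given as log2 of replicate 2 over replicate 1, for genes whose mean count reached 100, as it did for 77 members. Mrpl23, at 75.6 and 78.3 counts, did not. A gene was counted as apart where this ratio exceeded 0.32 in size. Of the 77 members 2 were apart, 2.60% against 6.21% of the 12651 genes compared, and none was over 1.5-fold apart, against 1.34%, or over 2-fold, against 0.466%. One of the members was higher in replicate 2, beside 4.50% of genes, and the other lower, beside 1.72%. Mrpl54 (chr10:81264713-81266934, minus strand), a large-subunit gene without a bacterial counterpart, had 153 counts in replicate 1 and 194 in replicate 2, a log2 ratio of 0.42 with a 95% exact binomial interval of 0.11 to 0.74. Mrps11, a small-subunit gene of bacterial descent, had 294 and 208 counts, a log2 ratio of -0.42 with an interval of -0.68 to -0.16. Such an interval left out 0 for 9 of 77 members, 11.7% against 29.5% of all genes compared, whose counts and so whose intervals are of other sizes. These intervals cover counting error only, and with 1 library on each side there is no test between them.

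The median log2 ratio of the members was -0.05 and that of all genes compared was -0.01. The ratio was below 0 for 52 of 77 members, or 67.5%, against 54.3% of all genes. Scaling by the spike-ins moved the median of all genes by 0.26 and that of the members to 0.20, with 5 of 77 members below 0, so the direction holds only relative to the other genes. The choroid plexus and oligodendrocyte markers given above differed between the libraries too. Several lists of neuronal markers were lower in replicate 2 as well. The median log2 ratio was -0.31 for CA3 (4 of 4 genes compared below 0) and -0.14 for pan-neuronal genes (5 of 5). It was -0.11 for excitatory neurons (4 of 4) and -0.09 for interneurons (5 of 5). Dentate granule markers went the other way, with a median of 0.09 and 5 of 6 genes above 0. Of the 5 CA1 markers 3 were below 0, 2 of them apart, and 2 were above 0. The part of these differences in the members' ratios was not tested. Over the member genes the SD between the libraries had a median of 4.40% of the mean TPM and was under 10% for 66 of 78. Neither value was taken over all genes. Of the lists above, none of the 5 other subunits, 21 assembly genes, 11 translation factors, 12 transcription and mRNA stability genes and 8 regulators that could be compared was apart by that measure. In the 17 synthetase genes 1 was, Lars2, at a log2 ratio of -0.41. Its counts differed widely between the quantifications, as given above.

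The low value of Mrpl23 came with a processed pseudogene. Mrpl23 (mm10, chr7:142532686-142540747, plus strand) encodes a large-subunit protein that lines the exit of the tunnel for the nascent chain. Mrpl23-ps1 (chr2:74591330-74591909, minus strand) is a copy of its mRNA. The 438-base coding sequence of transcript Mrpl23-201 is present in the copy without a single difference, and the identity extends over 540 bases of the transcripts. The first 120 bases of the coding sequence are shown with the same stretch of the copy, because a read from within them matches both genes. Capitals would mark differences, and there are none.
Mrpl23: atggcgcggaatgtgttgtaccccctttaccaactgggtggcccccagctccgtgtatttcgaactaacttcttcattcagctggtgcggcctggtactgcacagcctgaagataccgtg
Mrpl23-ps1: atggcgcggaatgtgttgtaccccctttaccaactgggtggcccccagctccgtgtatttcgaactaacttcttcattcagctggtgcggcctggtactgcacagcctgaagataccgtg

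The 2 quantifications divided these reads in opposite ways. In the first, Mrpl23 received 75.6 and 78.3 counts and the pseudogene 302 and 249, so that the copy held 78.0% ± 2.8 (SD, n = 2) of their sum. In the second, Mrpl23 received 402 and 352 counts and the pseudogene 0 in both libraries. The sums were close, 378 and 327 counts in the first and 402 and 352 in the second. Mrpl23 was thus last of 78 by TPM in the first quantification and 19th in the second, at 54.2 and 50.1 TPM. Its level is uncertain by that much, which exceeds the spread between the libraries.

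Some members have near-identical copies elsewhere in the genome, and few of these held reads. In 17 of the 77 members compared the expected count was not whole in at least 1 library, 22.1% against 14.8% of protein-coding genes at that depth, with a tolerance of 0.005. Such counts mark reads divided between genes. A copy was counted where another gene's transcript matched at least 200 bases of a member's coding sequence at 90% identity or more. By that rule 25 members had 43 copies, 42 of them pseudogenes, and 6 of the 43 had a mean of 10 or more counts in the first quantification. The share of other genes with such copies was not measured. The members and copies named here, other than Mrpl23, Mrps33 and Mrps5, were chosen after their values were seen. Mrps33 differs from Gm5776 (chr7:54412158-54412478, minus strand) at 1 of 318 coding bases. The 120 bases around that position are shown with the differing base in capitals.
Mrps33: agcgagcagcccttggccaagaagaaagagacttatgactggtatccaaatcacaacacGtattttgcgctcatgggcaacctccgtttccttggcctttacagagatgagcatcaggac
Gm5776: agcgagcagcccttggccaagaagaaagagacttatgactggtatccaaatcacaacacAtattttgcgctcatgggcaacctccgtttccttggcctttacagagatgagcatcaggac

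Gm5776 was given 103 and 72.5 counts in the first quantification and 0 in both libraries in the second, beside 747 and 667 counts for Mrps33 in the first. The copy took 10.9% ± 1.6 of their sum, so Mrps33 is less uncertain than Mrpl23. Mrpl48-ps took 5.43% ± 0.74 of the sum with Mrpl48, AC154457.3 took 7.71% ± 0.22 of that with Mrps10, and Gm13328 took 4.03% ± 1.0 of that with Mrps5. Mrpl53 shares its whole coding sequence with Gm42688, an overlapping gene on the same strand that is annotated as protein-coding. Gm42688 had 192 counts in both libraries in the first quantification and 401 and 438 in the second, and Mrpl53 had 393 and 352 in the first and 281 and 247 in the second.

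**Figure D3:**
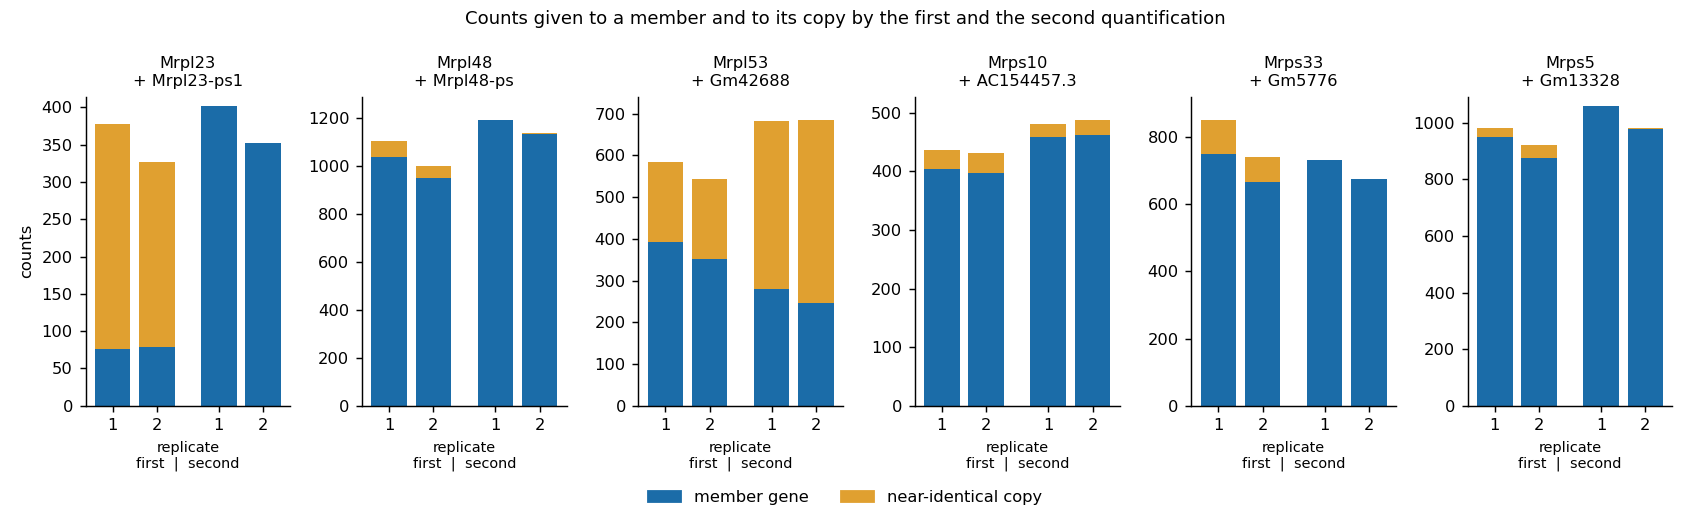
Counts given to 6 members (blue) and stacked on them the counts of their near-identical copy (orange), for replicates 1 and 2 in the first and in the second quantification. The orange part is most of the bar for Mrpl23 in the first quantification and absent in the second, while for Mrpl53 it is larger in the second.

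For most of the other members the scaled counts of the quantifications lay within 1.5-fold of each other. Each quantification scaled to its own total, 2 of 77 members were over 1.5-fold apart in the same direction in both libraries, 2.60% against 3.31% of genes compared, both of them higher in the first, as were 2.35% of genes. Mrps21 had 512 and 487 counts in the first and 290 and 268 in the second, and was 1.82-fold higher in the first. Mrpl52 had 319 and 317 counts in the first and 198 and 204 in the second, and was 1.60-fold higher in the first. Both genes have short RNAs, with average lengths of 429 and 413 bases in replicate 1. Across the 78 members the log2 ratio of second over first was higher for longer RNAs (Spearman's rho 0.52, Pearson's r 0.46), a description over genes that share the same 2 libraries. TPM, which corrects for length in each quantification, ranked the members alike, with a rho of 0.874 over 78 genes and 0.917 without Mrpl23.

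A member's RNA was not always its coding RNA. The 78 genes have 343 annotated transcripts, of which 170 are protein-coding, 88 retain an intron, 61 are processed transcripts without a reading frame and 24 are marked for nonsense-mediated decay. Protein-coding transcripts took 73.9% ± 0.51 (SD, n = 2) of the members' TPM in the first quantification, retained introns 13.7% ± 0.40, processed transcripts 7.35% ± 0.28 and decay-marked ones 5.01% ± 0.18. The transcript with the highest TPM was protein-coding for 64 members by the first quantification and for 60 by the second. Among the 69 members at 10 TPM or more with at least 2 transcripts, 13 were led by a transcript of another kind, 18.8% against 7.71% of the 7343 protein-coding genes under the same limits. In the second quantification the number was 17, or 24.6% against 9.60%. The median share of TPM outside coding transcripts was 14.6% in these members and 13.6% in those genes, and in the second quantification 14.1% and 16.3%.

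By the mean of the libraries, 13 members were led by a protein-coding transcript in neither quantification, and the 10 with the highest TPM are described. In 10 of the 13 the leading transcript exceeded the strongest coding one in each library of both quantifications. The exceptions were Mrpl13, Mrpl3 and Mrpl19. In replicate 1 of the second quantification the coding transcript was higher for Mrpl13 (19.2 against 16.8 TPM) and Mrpl3 (23.2 against 21.8 TPM), and for Mrpl19 it was higher in replicate 2 of the first (5.20 against 3.78 TPM). Mrps26 (chr2:130563742-130568695, plus strand), a mitochondria-specific small-subunit gene, was led by the intron-retaining Mrps26-201, at 31.7 and 32.1 TPM, beside 2.61 TPM in both libraries for the coding Mrps26-202. Mrpl57 was led by the intron-retaining Mrpl57-202 (25.2 and 24.7 TPM; coding 4.93 and 4.73 TPM), and Mrps24 and Mrps25 were also led by retained introns, at 21.2 and 24.2 TPM and at 13.9 and 14.2 TPM. In these 4 genes the coding transcripts were below the leading one in both libraries. Mrpl51, Mrpl15, Mrps16 and Mrps35 were led by processed transcripts, at 16.6 and 17.6, 15.0 and 13.9, 13.5 and 11.8, and 8.33 and 11.1 TPM. Mrpl3 and Mrpl13 were led by decay-marked transcripts, at 9.39 and 7.25 TPM and at 13.6 and 14.9 TPM. The leading transcript was shorter than the gene's strongest coding transcript in 13 of the 14 members led in this way in the first quantification, with median lengths of 687 and 3006 bases. These lengths were not compared in other genes. Counted by reads rather than by TPM, 70 of the 78 members were led by a protein-coding transcript. The share of all protein-coding genes led in that way by reads was not measured.

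Single transcripts were less certain than genes. The leading transcript was the same in both quantifications for 58 of 78 members. Under the limits above it differed for 18 of 69, or 26.1%, a share near the 24.2% of all such genes. For Mrps14, chosen after its values were seen, the first quantification placed 26.0 and 21.6 TPM on the decay-marked Mrps14-201 and 1.40 and 1.51 TPM on the coding Mrps14-202. The second placed 0 on the former and 54.0 and 45.8 TPM on the latter. That change between quantifications exceeded the spread between the libraries in either of them.

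**Figure D4:**
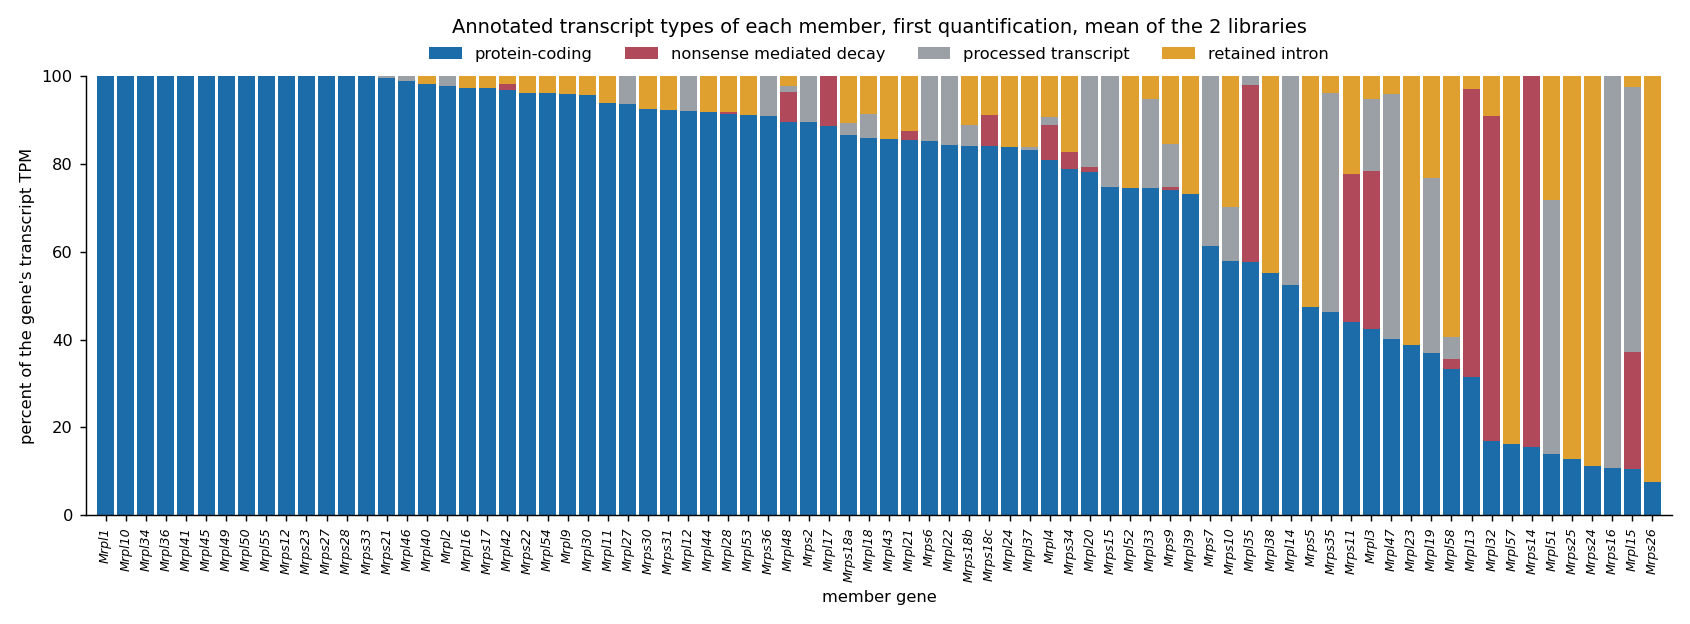
Percent of each member's transcript TPM (mean of the 2 libraries, first quantification) held by protein-coding (blue), decay-marked (red), processed (grey) and intron-retaining (orange) transcripts. Coding RNA takes all of the TPM in the 14 genes at the left, while 92.4% of the TPM of Mrps26 at the right lies outside coding transcripts.

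The members are dispersed in the genome. They lie on 17 chromosomes, with 11 on chromosome 11, 8 on chromosome 17 and 7 on chromosome 6. A head-to-head partner, a protein-coding gene on the other strand whose start lies within 1000 bases of the member's start, was present for 33 of 78 members, or 42.3%, against 10.7% of protein-coding genes and 15.3% of those detected here. The partners named next were chosen after their values were seen. Mrpl46 (chr7:78775236-78783531, minus strand) and Mrps11 (chr7:78783119-78792989, plus strand) are partners of each other and overlap at their starts. Mrpl46 was at 12.2 and 12.4 TPM and Mrps11 at 15.5 and 11.7 TPM, and the value of Mrps11 lay above that of Mrpl46 in replicate 1 and below it in replicate 2.

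Sars2, Ptcd2, Twnk, Ndufs6 and Ndufb5 are examples of partners with a known role in mitochondria. Mrps12 starts 172 bases from Sars2, the mitochondrial seryl-tRNA synthetase (4.14 TPM, against 21.9 for Mrps12), and Mrps27 starts 81 bases from Ptcd2, a pentatricopeptide-repeat protein (12.1 against 10.4 TPM). Mrpl43 overlaps Twnk, the helicase that replicates mitochondrial DNA (6.19 against 16.4 TPM), and Mrpl36 and Mrpl47 overlap the complex I genes Ndufs6 (72.5 against 16.1 TPM) and Ndufb5 (82.4 against 8.19 TPM). Levels of partners could lie far apart. Mrpl49 was at 17.7 TPM and its partner Fau, a cytosolic ribosomal protein gene 59 bases away, at 282 TPM, while Mrpl10 was at 30.6 TPM and its partner Lrrc46 at 0.330 TPM. In all 22 members overlap another gene whose mean count reached 100, 28.2% against 20.0% of detected protein-coding genes. For 18 of them, 23.1% against 15.9%, such a gene is on the opposite strand. Whether the counting used the strand is not stated by the labels, and the levels of those members are uncertain to that extent.

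Promoter windows were searched for 3 motifs of factors known to act on nuclear genes for mitochondrial proteins, and each was in a larger share of members than of other genes. Windows from 250 bases before to 50 after the annotated start (RefSeq, GRCm38.p6) were found for 69 of 78 members. They were searched on both strands for CCGGAAG, the core of the sites of ETS factors such as GABPA, for the palindromic NRF1 site, of which the capitals shown for Mrpl45 are examples, and for the long YY1 site around ATGGC. The ETS motif was in 26 of 69 windows, 37.7% against 9.93% of all genes and 19.6% of detected protein-coding genes. The NRF1 motif was in 13 (18.8% against 5.19% and 11.5%) and the YY1 motif in 5 (7.25% against 0.755% and 1.78%). Any of them was in 38, or 55.1%, against 14.5% and 29.8%. A gene with several annotated starts was counted once, if any window held the motif, and 3 members had several. A match describes letters and shows no binding.

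Of 31 ETS matches in members 28 began between 100 bases before the start and 50 after it, 90.3% against 75.5% of the 2571 matches in detected protein-coding genes. For NRF1 the number was 14 of 16, 87.5% against 72.0%. For YY1 it was 4 of 5, 80.0% against 80.1%, so the shares were alike. The stretches of 150 bases that end just before the RefSeq start are shown for 4 genes without a head-to-head coding partner, to show the motifs in place, with motif letters in capitals. Mrps21, the member with the highest TPM in the first quantification, has an NRF1 match in reverse orientation (GRCm38.p6, chr3:95871515-95871664, minus strand). Mrpl45 has 2 NRF1 matches (chr11:97315566-97315715, plus strand). Mrpl53 has 2 ETS matches, in opposite orientations (chr6:83108958-83109107, plus strand), and Mrps18a has 1 (chr17:46110854-46111003, plus strand). The searched 50 bases after the start are not shown. They hold 1 more NRF1 match in Mrpl45, 1 ETS match in Mrps21 and 1 YY1 match in Mrps18a.
Mrps21: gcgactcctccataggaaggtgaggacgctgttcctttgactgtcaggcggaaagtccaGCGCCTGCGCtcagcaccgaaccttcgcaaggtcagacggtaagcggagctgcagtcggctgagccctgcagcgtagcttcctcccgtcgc
Mrpl45: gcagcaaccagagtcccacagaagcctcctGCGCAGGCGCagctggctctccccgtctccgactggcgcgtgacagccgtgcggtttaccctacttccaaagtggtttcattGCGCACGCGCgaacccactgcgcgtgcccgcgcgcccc
Mrpl53: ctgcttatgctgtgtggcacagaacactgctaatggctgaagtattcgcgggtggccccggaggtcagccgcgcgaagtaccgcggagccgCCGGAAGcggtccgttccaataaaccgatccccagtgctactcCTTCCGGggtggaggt
Mrps18a: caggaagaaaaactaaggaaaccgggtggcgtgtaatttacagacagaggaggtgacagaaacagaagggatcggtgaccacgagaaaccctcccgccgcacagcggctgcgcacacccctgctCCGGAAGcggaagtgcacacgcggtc

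Members with the ETS motif had a median of 26.5 TPM and the 43 without it a median of 17.7 TPM. For the NRF1 motif the medians were 18.2 TPM with and 21.6 TPM without, and for YY1 13.6 and 21.6 TPM. These medians describe the same 69 genes split in 3 ways, and no test was made of them. Among the genes shown, Mrps21 was first of the 78 members by TPM of the first quantification, Mrps18a 14th, Mrpl53 25th and Mrpl45 70th.

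**Figure D5:**
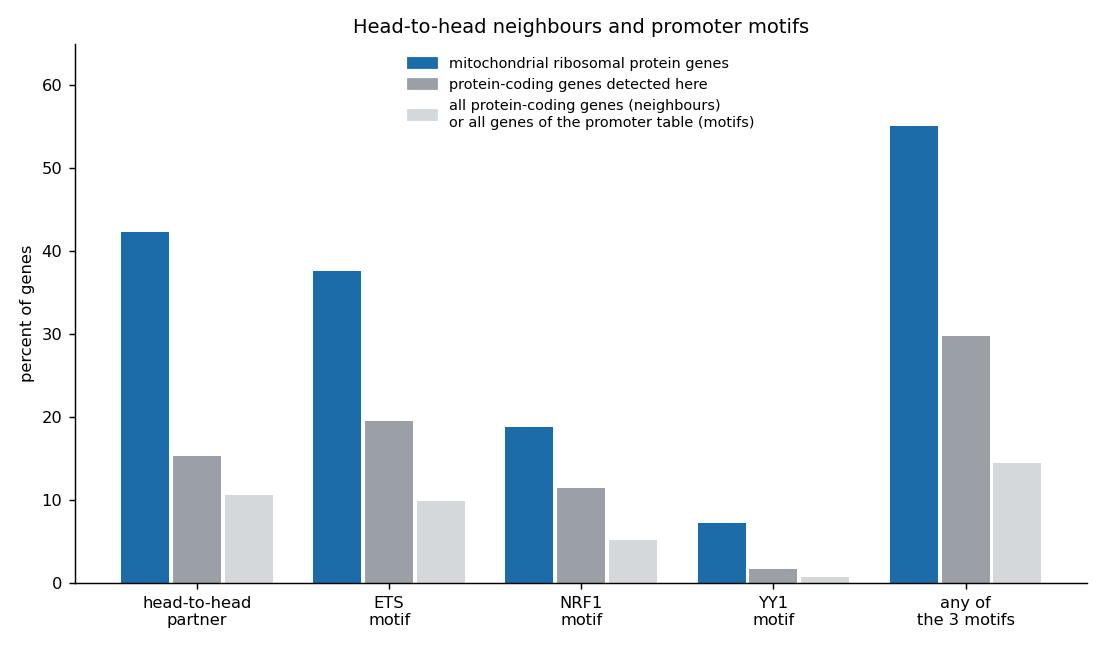
Percent of the mitoribosomal genes (blue) with a head-to-head coding partner within 1000 bases or with a promoter motif, beside detected protein-coding genes (dark grey) and all protein-coding genes or all genes of the promoter table (light grey). The blue bar is the highest in each set, from 7.25% for YY1 to 55.1% for any of the 3 motifs.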

How the data were processed

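Total RNA of 2 hippocampus libraries was compared gene by gene. For each library the authors deposited a gene table and a transcript table with expected counts, TPM and, for transcripts, the percent of the gene's TPM held by each (IsoPct). The same tables carry interval bounds for TPM, which are not reported. A second transcript table, deposited per library, holds estimated counts and TPM and was summed by gene here. The files use GENCODE M21 names on mm10; which software made them, and whether it used the strand, is not given in the sources used here. The mice carry a CAST/EiJ genome beside the C57BL/6J genome that mm10 represents, and the effect on counts was not tested.

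Members were found by gene name, and members and gene lists were chosen with earlier results of these data known. Expected counts were scaled with edgeR 4.0.16 (TMM; DESeq2 1.42.0 size factors as an alternative; R 4.3.3). With 1 group there is no contrast and no p; ratios use a prior of 0.5 counts, and the ratio code was checked on simulated data. Genes were named by a rule: the 10 highest and 10 lowest TPM, members with a log2 ratio over 0.32 in size between libraries or over 1.5-fold apart between quantifications, the 10 highest not led by a coding transcript, members with known roles, and the 3 highest of each partner list. Totals of 32443497 and 30125183 gave members a median of 491 counts. Tables were handled with Python 3.11.15 and pandas 2.3.3.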

Additional observations from a re-analysis of the deposited data

How the results depend on the processing

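Of 62 values under alternative settings 42 stayed within the spread between libraries, within 0.1 for log2 ratios or within 1.5 times the count, and 20 moved. The median of 21.5 TPM was 40.1 TPM in the second quantification, 21.7 TPM over members whose mean count reached 100, 49.9 TPM when rescaled to protein-coding genes and 21.8 TPM with the copies' TPM added, and 21.25 to 21.44 TPM without one replicate. The difference between the subunits (0.04, log2) was 0.0897 with that count minimum and 0.02 to 0.05 without one replicate. The median log2 ratio between libraries (-0.05) changed sign, to 0.20, with spike-in scaling, under which 11 members had a log2 ratio over 0.32 in size instead of 2; with a mean of 500 counts or more, or with the limit at 1.5-fold or 2-fold, 0 members were apart. Spike-in scaling moved the median log2 ratio of all genes compared to 0.245, and the share of these genes over 0.32 was not counted. Under this scaling Mrpl54 had a log2 ratio of 0.68 and Mrps11 -0.16. Between quantifications 2 members were over 1.5-fold apart, 0 at 2-fold, 7 at a log2 ratio of 0.32, 4 by TPM and 2 to 3 without one replicate. In the second quantification Mrps21 was at 108 TPM, Mrpl52 at 87.5 TPM and Mrpl23 at 52.2 TPM. The ETS motif extended to CCGGAAGNG was in 13 members instead of 26 (18.8% against 9.71% of detected protein-coding genes), and CGGAAG was in 39 (56.5% against 34.4%). Without one replicate 78 members were detected and 62 to 64 were led by a coding transcript. The cause of these shifts was not tested. Adding the counts or TPM of copies, and leaving out members whose counts are not whole, were chosen after seeing the data. No paired analysis was possible because there is 1 group. With 2 libraries of 1 group, neither differences between animals nor any condition can be tested.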

Other observations

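Mrps14 (chromosome 1), a small-subunit gene of bacterial descent, had 601 counts in replicate 1 and 460 in replicate 2. Its log2 ratio of -0.31 lay just inside the limit used for genes apart between libraries, while its counting interval, -0.49 to -0.13, left out 0. It was chosen after its values were seen.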
